A study of Mus musculus with 6 samples.

Results

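The 10 cytotoxic effector genes described here are Gzma, Gzmb, Gzmk, Gzmm, Gzmc, Prf1, Nkg7, Fasl, Ifng and Tnfsf10. They were chosen by name, with earlier results of these data known, as rows of the count tables of 6 single-cell libraries of mouse liver. All 10 were among the 19349 genes counted. Their levels were read in CD8 T cells, natural killer (NK) cells, group 1 innate lymphoid cells (ILC1), NKT cells and gamma delta T cells, and compared between vehicle-treated and ginkgetin-treated mice. Liver non-parenchymal cells (LNPCs), the fraction left when most hepatocytes are removed, were run on the 10x Genomics Chromium system. All mice were male C57BL/6J, received a high-fat diet (HFD) for 24 weeks from the age of 8 weeks as a model of nonalcoholic steatohepatitis, and differed in the treatment of the last 8 weeks. The vehicle group (3 libraries) received DMSO by the intragastric route, and the ginkgetin group (3 libraries) received the plant biflavone ginkgetin at 10 mg/kg per day by the same route. A chow-fed group was not sequenced in these libraries, so both groups carry the effect of the diet. The labels give the replicates as separate samples and do not say whether each is 1 mouse or several, so the p-values measure the spread between these samples only.

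Killer lymphocytes carry lytic granules. Perforin (Prf1) forms pores in the membrane of a target cell, and granzymes, the serine proteases of the granule, enter through them. Granzyme B cleaves caspases and their substrates, granzymes A, K and M have other substrates, and granzyme C belongs to a cluster of mouse granzymes near granzyme B. Nkg7 is a protein of the granule membrane that helps degranulation. Fas ligand (Fasl) and TRAIL (Tnfsf10) kill through death receptors on the target, and interferon gamma (Ifng) is the cytokine that activates macrophages. In the mouse liver, conventional NK cells and ILC1 are told apart by integrins and Eomes, and TRAIL is a known marker of ILC1.

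The granzyme genes lie in neighbourhoods of the genome, and neighbours had unlike patterns over the cell classes. Gzma and Gzmk lie next to each other on chromosome 13, with starts 80.0 kb apart, and were highest in different classes. Gzmb and Gzmc lie on chromosome 14, with starts 27.7 kb apart, and Gzmb was found in all 5 classes where most Gzmc UMIs lay in 1. For this reason the 200 bases before the start of each of these 4 genes are shown, 5′ to 3′ on the strand of the gene, from RefSeq's promoter table (GRCm38.p6, the build the submitters' processing notes name). Capitals mark the letters of 3 motifs searched on both strands: GGTGTGA (T-box factors), TGTGGT (Runx factors) and TGANTCA (AP-1).
Gzma, chr13:113100982-113101181, strand -: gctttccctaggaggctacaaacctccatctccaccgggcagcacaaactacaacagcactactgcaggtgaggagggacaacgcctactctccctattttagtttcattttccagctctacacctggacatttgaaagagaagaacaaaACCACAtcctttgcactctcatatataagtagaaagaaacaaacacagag
Gzmk, chr13:113180966-113181165, strand -: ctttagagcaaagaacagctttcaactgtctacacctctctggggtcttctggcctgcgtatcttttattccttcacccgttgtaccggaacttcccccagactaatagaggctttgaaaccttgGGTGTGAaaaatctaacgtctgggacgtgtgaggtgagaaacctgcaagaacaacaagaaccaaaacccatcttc
Gzmb, chr14:56262335-56262534, strand -: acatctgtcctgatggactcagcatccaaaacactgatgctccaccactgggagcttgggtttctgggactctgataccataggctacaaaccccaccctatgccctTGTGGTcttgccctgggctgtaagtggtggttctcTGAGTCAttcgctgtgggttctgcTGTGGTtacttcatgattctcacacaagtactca
Gzmc, chr14:56234658-56234857, strand -: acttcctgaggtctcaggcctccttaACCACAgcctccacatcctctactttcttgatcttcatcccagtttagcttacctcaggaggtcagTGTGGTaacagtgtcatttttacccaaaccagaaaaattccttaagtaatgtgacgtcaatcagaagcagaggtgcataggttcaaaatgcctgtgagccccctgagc
The Gzmk stretch held 1 T-box match, 75 bases before the start, and the Gzma stretch held 1 Runx match, at base -50. The Gzmb stretch held Runx matches at -93 and -34 and an AP-1 match at -58, and the Gzmc stretch held Runx matches at -174 and -108. Over promoter windows of 300 bases, a T-box match was present in 3 of the 10 members (Gzmk, Gzmm and Nkg7), a Runx match in 6 (Gzma, Gzmb, Gzmc, Gzmm, Nkg7 and Prf1) and an AP-1 match in 1 (Gzmb). Of 32851 promoter windows, 3.98% held the T-box letters, 16.8% the Runx letters and 7.81% the AP-1 letters. The windows of Fasl, Ifng and Tnfsf10 held no match to these letters. These matches describe the letters and not binding. In the GENCODE annotation (vM21), Gzmk spans chr13:113171608-113225908, so that its stretch lies inside the span of a longer isoform.

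The tables held counts of unique molecular identifiers (UMIs) for 33168 barcodes, 13128697 to 61796882 UMIs per library. Of these, 27544 cells were kept, with a median of 2483 to 8412 UMIs per cell in the 6 libraries. Replicate 3 of both groups stood apart from replicates 1 and 2, and this touches several members. There were 2253 genes without a UMI in replicates 1 and 2 that had UMIs in replicate 3, and 946 genes with the reverse. Trdc, the constant gene of the T cell receptor delta chain, was one of the former. Replicates 1 and 2 shared up to 85 cell barcodes between 2 libraries, whereas at most 1 barcode was shared between one of them and a replicate 3. Values are therefore also given for replicates 1 and 2 and replicate 3 apart.

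Classes were set from marker UMIs of single cells, and no member was used. CD8 T cells had UMIs of Cd3 genes and Cd8b1, NKT cells had Cd3 genes with Zbtb16 or Klrb1c, and gamma delta T cells had Cd3 genes with Trdc. NK cells and ILC1 had Ncr1 or Klrb1c without Cd3d and were split by Eomes, Itga2, S1pr5 and Klra genes against Itga1, Cd200r1, Cxcr6 and Il7r. This gave 1625 CD8 T cells, 166 NK cells, 285 ILC1, 618 NKT cells and 58 gamma delta T cells, the last in the replicate 3 libraries alone. In replicates 1 and 2, where Trdc could not be read, gamma delta T cells cannot be told apart from the other T cell classes. Ncr1, which marks NK cells and ILC1, was at 632 ± 257 CPM (UMIs of the gene per 1000000 UMIs of the class in a library, SD over 6 libraries) in NK cells and 568 ± 177 in ILC1, and Eomes was at 313 ± 105 in NK cells against 6.11 ± 9.31 in ILC1. Both genes were part of the gate, so these levels describe the gate and are no check of the classes. When cells were clustered without the members, 1481 of the 1625 CD8 T cells, 146 of the 166 NK cells, 273 of the 285 ILC1 and 515 of the 618 NKT cells fell in clusters of the same name. Another 2148 T cells without a deciding marker entered no class.

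The shares of the classes varied widely between the ginkgetin libraries. CD8 T cells made up 7.64% ± 0.650 (SD, n = 3) of vehicle cells and 4.73% ± 3.62 of ginkgetin cells, and NK cells 0.443% ± 0.0919 and 0.826% ± 0.521. ILC1 made up 1.47% ± 0.272 of vehicle cells against 0.729% ± 0.626, and NKT cells 1.39% ± 0.403 against 3.47% ± 2.16. None of these differences passed a two-sided exact permutation test (p from 0.2 to 0.4, adjusted p 0.4), and with 3 libraries against 3 such a test cannot go below 0.1. The levels below are CPM within a class, in which the share of the class does not enter.

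Granzyme A stood higher in NK cells than in the other lymphoid classes in each library. Gzma stood at 9253, 8727 and 6396 CPM in the NK cells of vehicle replicates 1 to 3 and at 7695, 5623 and 10767 CPM in those of ginkgetin replicates 1 to 3. In ILC1 it ranged from 47.4 to 1978 CPM, in CD8 T cells from 118 to 1336 and in NKT cells from 111 to 659, so that the ranges of the 3 classes overlapped one another and none reached the lowest NK value. CD4 T cells, gated for comparison, had a mean of 18.4 CPM. Sums per library and class were compared in 1 edgeR fit with the library as a block, and a gene was called at an adjusted p under 0.05 and a fold over 2. Gzma was higher in NK cells than in ILC1 by 3.78 ± 0.47 (SE) on the log2 scale (adjusted p = 3.72e-07) and than in CD8 T cells by 3.94 ± 0.46 (adjusted p = 1.80e-08). NK cells were 0.603% of the kept cells and held 26.3% of all Gzma UMIs.

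**Figure D1:**
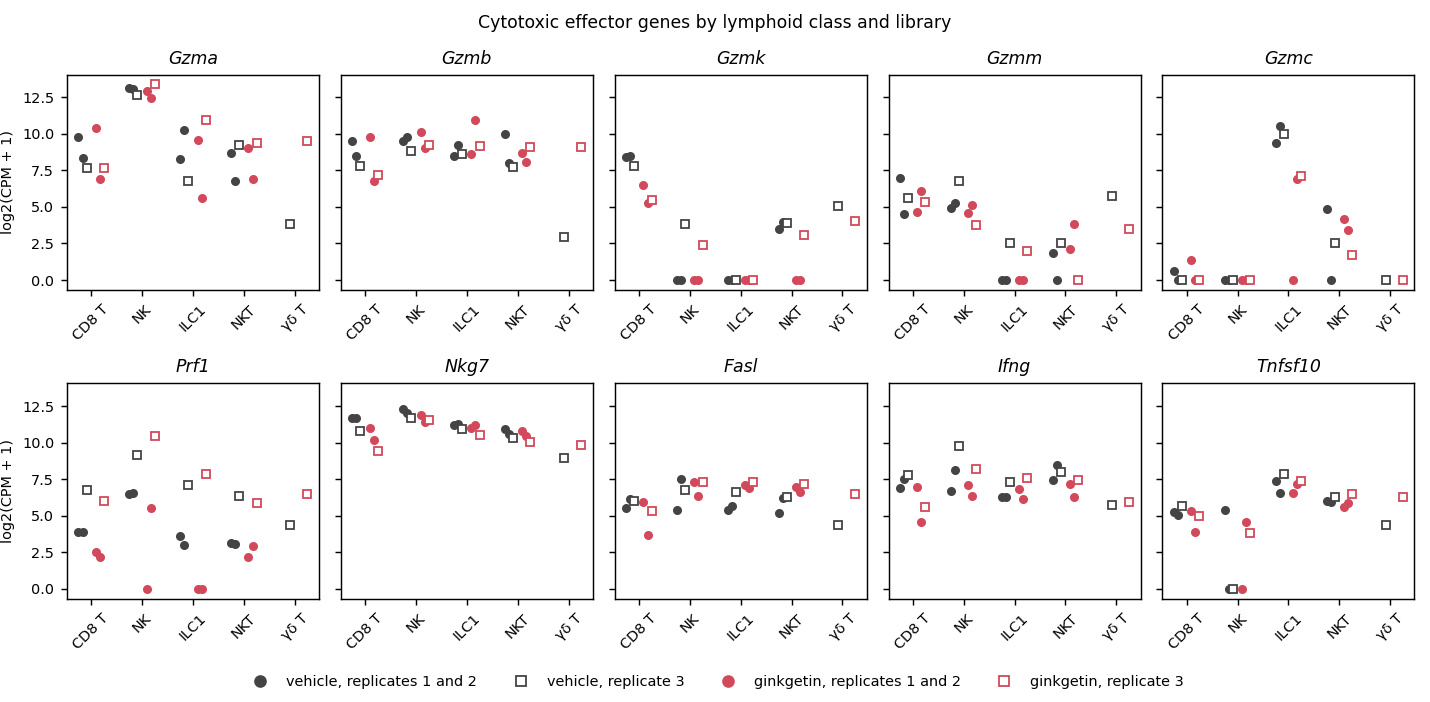
Level of each member in each class, as log2(CPM + 1), 1 point per library, for vehicle and ginkgetin; filled circles are replicates 1 and 2 and open squares replicate 3. Gzma stands highest in NK cells, Gzmc in ILC1 and Gzmk in CD8 T cells, and Prf1 is higher in replicate 3 of each class drawn with all 6 libraries.

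Granzyme B, in contrast, was read in all 5 classes. Its mean was 720 CPM in NK cells, 715 in ILC1, 450 in NKT cells, 409 in CD8 T cells and 277 in gamma delta T cells, against 73.8 in CD4 T cells. The gamma delta mean came from 6.60 CPM (1 UMI) and 548 CPM in 2 libraries. The libraries overlapped between all neighbours in this order, and no class contrast of Gzmb was called over all libraries. Without ginkgetin replicate 3, CD8 T cells lay above the 1 gamma delta library left by 5.33 on the log2 scale. The difference of NK cells to ILC1 was 0.03 ± 0.41 on the log2 scale, and that of CD8 T cells to NKT cells was -0.06 ± 0.36. With classes from clusters the former was -0.77. Errors of this size do not show that the classes are alike. In single CD8 T cells thinned to 1000 UMIs, Gzmb was seen in 33.3% to 75.6% of the cells with a Gzma UMI and in 4.85% to 37.6% of the rest, a higher share beside Gzma in 6 of 6 libraries, from 5 to 82 cells with Gzma in each. NK cells without Gzma were too few for that comparison, 1 to 9 per library.

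Granzyme C was a gene of ILC1 in these livers. The vehicle libraries had 666, 1511 and 1027 CPM in ILC1 (233, 213 and 423 UMIs), and ILC1, 1.03% of the kept cells, held 74.1% of all Gzmc UMIs. NK cells had no Gzmc UMI in 593143. The mean of ILC1 was 211-fold (vehicle, 1068 CPM) and 16.7-fold (ginkgetin, 84.7 CPM) the floor of 3 UMIs over the NK cells of both groups. The NK cells of each group alone held 228097 (vehicle) and 365046 UMIs (ginkgetin), so floors within a group would be higher and these folds lower. NKT cells had 23 UMIs. By counts summed over libraries, ILC1 were 59.0-fold higher than NKT cells in the vehicle group (counting interval at 95%, 33.6 to 115) and 21.2-fold higher in the ginkgetin group (10.9 to 45.2), and over both groups they were 5.18 ± 0.39 higher on the log2 scale of the fit (adjusted p = 3.14e-11). CD8 T cells had 3 Gzmc UMIs, and the ratio of NKT to CD8 T cells was 70.5 (10.4 to 3015) in vehicle and 7.63 (1.67 to 70.9) in ginkgetin libraries. Intervals and floors cover counting error only. By transcript sequence, Gzmc is 72.5% identical to Gzme and 47.8% to Gzmb, and Gzmd, Gzme, Gzmg and Gzmn were not rows of the tables used here, so reads of near copies in Gzmc cannot be told apart. Gzmf, a row of the tables and 72.0% identical, had no UMI in the 5 classes. Among thinned vehicle ILC1 with a Gzmc UMI, 5 of 9, 4 of 6 and 6 of 13 cells in replicates 1 to 3 had Gzmb, against 14.5%, 17.1% and 13.3% of the rest. The ginkgetin libraries held 0, 1 and 3 ILC1 with Gzmc.

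Granzyme K was a T cell gene. Its mean was 179 CPM in CD8 T cells, 36.2 in CD4 T cells, 24.2 in gamma delta T cells and 7.77 in NKT cells, and CD8 T cells held 66.8% of all Gzmk UMIs as 5.90% of the cells. NK cells had 2 Gzmk UMIs and ILC1 had none. By summed counts CD8 T cells were 66.9-fold higher than NK cells in the vehicle group (11.99 to 2646) and 23.5-fold higher in the ginkgetin group (4.16 to 934), each against 1 UMI. Their means were 134-fold (vehicle) and 25.2-fold (ginkgetin) the floor of 3 UMIs over the ILC1 of both groups. The ILC1 of each group alone held 902864 (vehicle) and 425191 UMIs (ginkgetin), so floors within a group would be higher and these folds lower. Against NKT cells the difference was 4.23 ± 0.28 on the log2 scale (edgeR adjusted p = 1.27e-12), and against gamma delta T cells 2.69 ± 0.49 (adjusted p = 0.00127). Granzyme M was read at low levels. Its mean was 54.2 CPM in CD8 T cells, 40.8 CPM in NK cells (20 UMIs) and 31.5 CPM in gamma delta T cells (10 UMIs in 2 libraries), with 7 UMIs in NKT cells and 3 in ILC1. CD8 T cells exceeded NKT cells by 4.23 ± 0.44 on the log2 scale (adjusted p = 4.85e-09), and the ratio of NK cells to ILC1 by summed counts was 25.7 (5.82 to 235) in vehicle and 8.15 (1.05 to 367) in ginkgetin libraries.

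Perforin was read at different levels in the 2 sets of libraries. Its mean in NK cells was 57.1 CPM over replicates 1 and 2 and 972 CPM over replicate 3, and a step of the same direction was present in ILC1 (4.63 and 186), CD8 T cells (8.86 and 86.3) and NKT cells (6.26 and 69.4). NK cells were highest in both sets. They exceeded ILC1 by 2.47 ± 0.28 on the log2 scale (adjusted p = 4.59e-08) and CD8 T cells by 2.91 ± 0.27 (adjusted p = 9.61e-11), and ILC1 exceeded NKT cells by 1.30 ± 0.33 (adjusted p = 0.00967), which was 0.60 without ginkgetin replicate 3 and 0.41 with the UMI filter (cells of 250 to 5000 UMIs), neither of them called. In replicates 1 and 2 alone Prf1 had too few counts to be tested between classes. Nkg7 was read in every class. Its mean was 3702 CPM in NK cells, 2122 in ILC1, 2071 in CD8 T cells, 1502 in NKT cells, 714 in gamma delta T cells and 592 in CD4 T cells. NK cells exceeded ILC1 by 0.82 ± 0.17 on the log2 scale (adjusted p = 0.00161), a difference under 2-fold and so not called. CD8 T cells exceeded gamma delta T cells by 1.24 ± 0.28 (adjusted p = 0.0116), a call that was lost without vehicle replicate 3, as was that of Gzmk. Without vehicle replicate 3 no member was called in that contrast, where 0.695% of genes were, and without ginkgetin replicate 3, 6 were, where 3.37% of genes were. Gamma delta T cells were then 1 library of 34 or 24 cells, assumed to vary like the other classes.

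**Figure D2:**
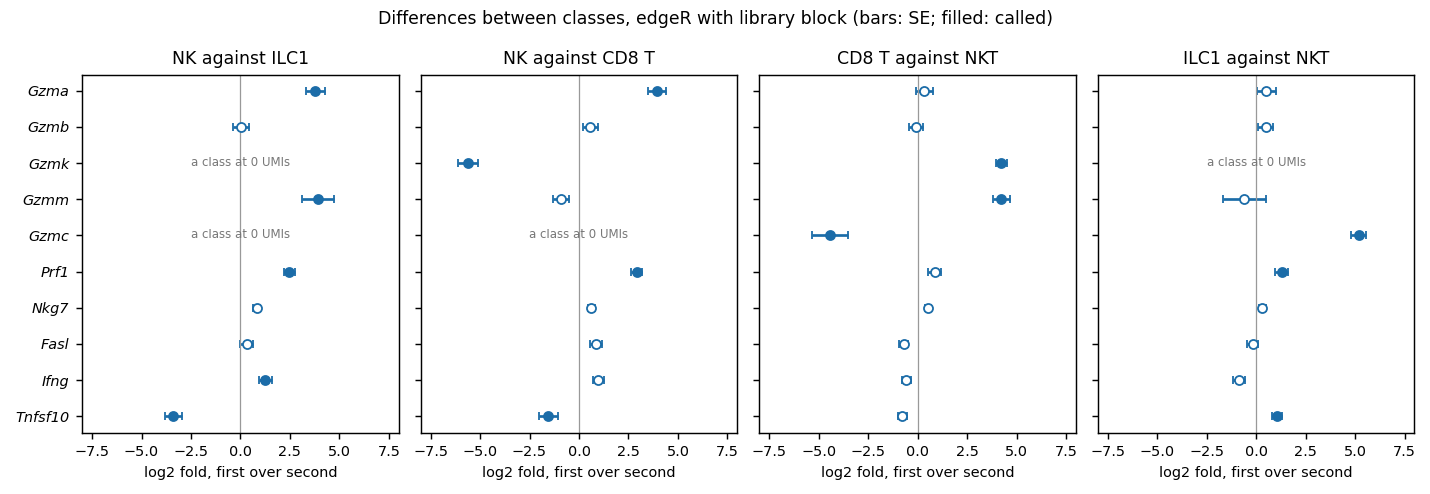
Log2 difference between classes for each member with its SE, from the edgeR fit with the library as a block; filled points were called at an adjusted p under 0.05 and a fold over 2. In the contrast of NK cells with ILC1, Gzma (3.78) and Prf1 (2.47) lie to the NK side and Tnfsf10 (-3.39) to the ILC1 side, while Gzmb (0.03) lies at 0.

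The 2 death ligands were spread differently. Tnfsf10 was highest in ILC1, at 163, 92.2 and 235 CPM in the vehicle libraries and 91.3, 142 and 168 CPM in the ginkgetin libraries. NK cells had 9 UMIs in all, a mean of 12.7 CPM, and lay below ILC1 by -3.39 ± 0.43 on the log2 scale (adjusted p = 3.72e-07). ILC1 exceeded NKT cells by 1.06 ± 0.23 (adjusted p = 0.00185), a difference that was under 2-fold without vehicle replicate 1 (0.98) or 3 (0.87), with the UMI filter (0.96) and with classes from clusters (0.93). Most Tnfsf10 UMIs lay outside the lymphocytes: endothelial cells, 26.7% of the cells, held 56.9% of them at a mean of 85.8 CPM. Fasl had means of 122 CPM in NK cells, 99.8 in ILC1, 91.5 in NKT cells, 53.5 in gamma delta T cells and 48.3 in CD8 T cells, and no class contrast of Fasl was called. CD8 T cells lay below NKT cells by -0.70 ± 0.23 on the log2 scale (adjusted p = 0.0467), a difference under 2-fold that was -0.23 with the UMI filter (adjusted p = 0.704).

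Ifng had a mean of 291 CPM in NK cells, where it ranged from 80.3 to 862, and of 195 in NKT cells, 120 in CD4 T cells, 118 in CD8 T cells, 115 in ILC1 and 57.1 in gamma delta T cells. NK cells exceeded ILC1 by 1.26 ± 0.32 on the log2 scale (edgeR adjusted p = 0.0107). In replicates 1 and 2 alone that difference was 0.95 ± 0.36 (adjusted p = 0.175), and without vehicle replicate 3 it was 0.77; neither was called. The difference of NK cells to CD8 T cells, 0.96 ± 0.28 (adjusted p = 0.0138), was under 2-fold. It was 0.14 (adjusted p = 0.858) in replicates 1 and 2 alone, and 5 other settings called it, at 1.03 to 1.15.

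In all, 6 of the 10 members were called between NK cells and ILC1, where 4.52% of the 5995 genes tested were called. The members higher in NK cells were Gzma, Gzmm, Prf1 and Ifng, and those higher in ILC1 were Gzmc and Tnfsf10. The call of Gzmm (3.92) was lost with the UMI filter (2.59, adjusted p = 0.200) and with classes from clusters (1.81, adjusted p = 0.0532). Between NK and CD8 T cells 4 members were called, where 9.42% of genes were. Gzma and Prf1 were higher in NK cells, and Gzmk and Tnfsf10 were higher in CD8 T cells, the last by 1.56 on the log2 scale (-1.56 ± 0.49 in NK against CD8 T cells, adjusted p = 0.0232). That call of Tnfsf10 was lost without vehicle replicate 2 or 3 and without ginkgetin replicate 1 or 3 (-1.46 to -1.30), in replicates 1 and 2 alone (-0.85, adjusted p = 0.427) and with classes from clusters (-0.14, adjusted p = 0.892). Between CD8 T and NKT cells 3 were called (Gzmk, Gzmm and Gzmc, against 4.64% of genes), between ILC1 and NKT cells 4 (Gzmc, Prf1, Tnfsf10 and Gzmk, against 3.97%), and between CD8 T and gamma delta T cells 2 (Gzmk and Nkg7, against 1.52%). With replicates 1 and 2 alone, 8 members could be tested. Gzma, Gzmc and Tnfsf10 were called between NK cells and ILC1 (against 3.01% of genes) and Gzma and Gzmk between NK and CD8 T cells (8.03%). Between CD8 T and NKT cells Gzma, Gzmk and Gzmc were called (4.37%), Gzma at 1.12 where it was 0.34 over all libraries. Between ILC1 and NKT cells Gzmc, Ifng and Tnfsf10 were called (3.86%), Ifng at -1.39 (adjusted p = 0.000747) where it was -0.86 over all libraries and not called, and Gzmk was no longer called (adjusted p = 0.121). Ifng in that contrast was also called with the UMI filter (-1.42), without ginkgetin replicate 3 (-1.27) and with classes from clusters (-1.04).

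**Figure D3:**
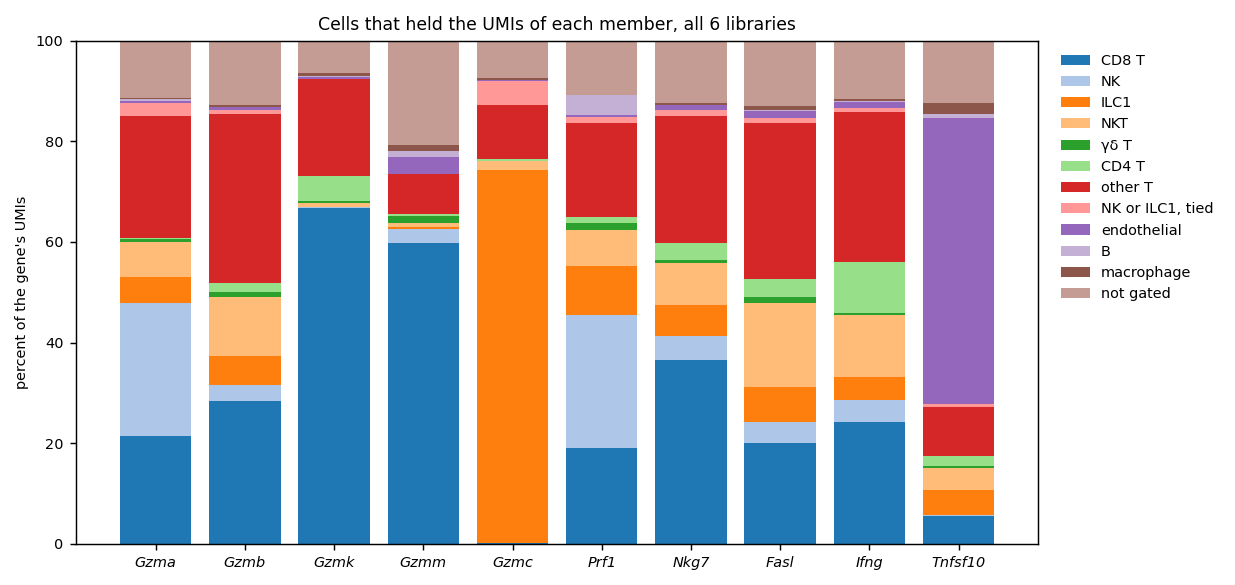
Percent of all UMIs of each member that lie in each cell class, summed over the 6 libraries. CD8 T cells hold 66.8% of Gzmk and 59.8% of Gzmm, ILC1 hold 74.1% of Gzmc, and endothelial cells hold 56.9% of Tnfsf10.

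In CD8 T cells, Gzmk was lower in ginkgetin-treated mice in every library. The vehicle libraries had 334, 354 and 217 CPM and the ginkgetin libraries 89.9, 38.1 and 43.1 CPM, so that the lowest vehicle library was above the highest ginkgetin library. The means were 301.7 ± 73.8 CPM (SD, n = 3) and 57.0 ± 28.6 CPM. The log2 fold change, ginkgetin against vehicle, was -2.31 ± 0.43 (SE), with an adjusted p of 0.398 by edgeR's quasi-likelihood test without a replicate block, which did not pass. With the replicate number as a block the value was -2.38 ± 0.29 (adjusted p = 0.0132), which was called, and DESeq2 also called it (adjusted p = 0.000219). Within the 2 sets of libraries the direction was the same: 217 against 43.1 CPM in replicate 3, and 334 and 354 against 89.9 and 38.1 CPM in replicates 1 and 2.

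The share of CD8 T cells with a Gzmk UMI, each cell thinned to 1000 UMIs, was 25.8%, 29.4% and 21.2% in the vehicle libraries and 8.71%, 4.58% and 5.31% in the ginkgetin libraries. The means were 25.5% ± 4.13 and 6.20% ± 2.21, and without thinning they were 51.5% and 17.3%. The groups did not overlap, and the exact permutation p was 0.1, the smallest the design allows (adjusted p = 0.8 over 40 pairs of member and class). In B cells, which should lack the gene, the thinned share was 0.227% in vehicle and 0 in ginkgetin libraries. CD4 T cells differed in the same direction, at 51.9, 61.2 and 84.2 CPM against 16.3, 0 and 3.52 CPM, as did NKT cells at a far lower level (10.3, 14.7 and 14.1 CPM against 0, 0 and 7.42 CPM, 19 UMIs in all).

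Of the other members in CD8 T cells, Nkg7 was at 3374, 3286 and 1822 CPM in vehicle and 2070, 1181 and 694 CPM in ginkgetin libraries. The groups overlapped at the value of ginkgetin replicate 1, and the log2 fold change was -0.98 ± 0.52 (adjusted p = 0.706). Ifng was at 119, 181 and 217 CPM against 124, 22.5 and 46.7 CPM, with a log2 fold change of -1.31 ± 0.55 (adjusted p = 0.634). Both values missed the threshold with the replicate block too (adjusted p = 0.147 and 0.231). Gzma and Gzmb differed by 0.32 ± 0.93 and -0.13 ± 0.83, and ginkgetin replicate 1 had the highest value of all 6 libraries for both, 1336 and 878 CPM. Without that library the values were -1.59 and -1.79. Gzmm, Prf1, Fasl and Tnfsf10 had log2 fold changes between -0.995 and -0.44, all with adjusted p of 0.785 or more, and without 1 vehicle library Gzmm (0.41 without replicate 1) and Prf1 (0.69 without replicate 3) lay above 0. In CD8 T cells, 0 of the 9 members tested were called by edgeR, where 0% of the 7015 genes were called. Of the members 2 had an unadjusted p under 0.05, as had 539 genes, and 21 genes were called by DESeq2. With the replicate block 1 member was called, where 0.269% of genes were. Gzmk alone did not overlap between the groups, where 13.6% of all genes did not. The median log2 fold change of the 9 members was -0.58, and that of all genes tested was 0.04.

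**Figure D4:**
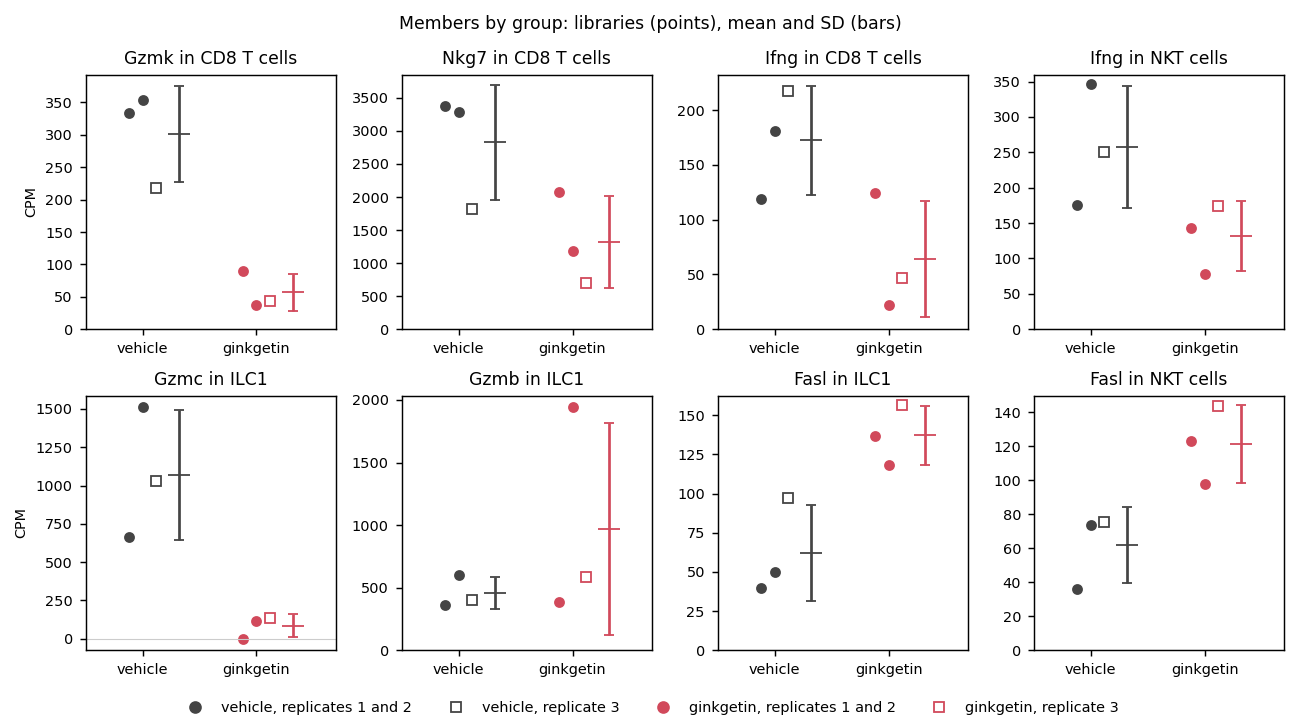
CPM of 8 member and class pairs in each vehicle and ginkgetin library, with the mean and SD of each group (n = 3). Gzmk in CD8 T cells, Gzmc in ILC1 and Ifng in NKT cells lie lower, and Fasl in ILC1 and NKT cells lies higher, in all 3 ginkgetin libraries than in any vehicle library, whereas Nkg7 and Ifng in CD8 T cells and Gzmb in ILC1 overlap.

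In ILC1, Gzmc was lower and Fasl was higher in each ginkgetin library. Gzmc stood at 666, 1511 and 1027 CPM in the vehicle libraries and at 0, 119 and 136 CPM in the ginkgetin libraries, from 0, 5 and 46 UMIs. The 19 ILC1 of ginkgetin replicate 1 had no Gzmc UMI, which allows up to 68.5 CPM. The log2 fold change was -3.61 ± 0.66 (edgeR adjusted p = 0.306), with the replicate block -3.58 ± 0.36 (adjusted p = 7.70e-07), and DESeq2 called it as well (adjusted p = 1.78e-07). After thinning, 14.3% ± 3.62 of vehicle ILC1 and 4.15% ± 3.62 of ginkgetin ILC1 had a Gzmc UMI. Fasl stood at 40, 49.7 and 97.1 CPM against 137, 119 and 156 CPM, a log2 fold change of 1.03 ± 0.39 (adjusted p = 0.568, and 0.338 with the replicate block). Gzmb had a log2 fold change of 1.001 ± 0.57 (adjusted p = 0.625), with 1943 CPM in the 15 ILC1 of ginkgetin replicate 2 and 363 to 603 CPM in the other 5 libraries. The groups overlapped, and without ginkgetin replicate 2 the value was -0.08. Nkg7, Ifng, Tnfsf10 and Gzma lay between -0.35 and 0.62. Of the 7 members tested 0 were called by edgeR, where 0.0293% of 3410 genes were. In that fit 2 members had an unadjusted p under 0.05, as had 8.56% of genes. DESeq2 called 1 member, where it called 4 of 12733 genes. With the replicate block 1 was called, where 0.661% of genes were. Gzmc and Fasl did not overlap between the groups, where 15.5% of genes did not.

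NKT cells shared the direction of Fasl with ILC1. Fasl stood at 36.1, 73.7 and 75.4 CPM in the vehicle libraries and at 123, 97.5 and 143 CPM in the ginkgetin libraries, a log2 fold change of 1.08 ± 0.34 (edgeR adjusted p = 0.604). With the replicate block it was 1.13 ± 0.31 (adjusted p = 0.0472) and was called, in this 1 of 17 alternatives only. A block of replicates 1 and 2 against replicate 3 did not call it. The thinned share of NKT cells with a Fasl UMI was 5.09% ± 1.71 and 11.01% ± 0.879. Ifng stood at 175, 347 and 250 CPM against 144, 78.0 and 174 CPM, with vehicle replicate 1 and ginkgetin replicate 3 close to each other, and a log2 fold change of -0.93 ± 0.36 (adjusted p = 0.639, and 0.142 with the block). Gzma, Gzmb, Nkg7 and Tnfsf10 had log2 fold changes between -0.28 and 0.21. Of the 6 members tested 0 were called by edgeR, where 0.0276% of 3625 genes were. In that fit 2 members had an unadjusted p under 0.05, as had 7.31% of genes. DESeq2 called 0 members, where it called 2 of 13796 genes. With the block 1 was called, where 1.75% of genes were. Fasl and Ifng did not overlap between the groups, where 12.5% of genes did not, and Gzmk, whose 19 UMIs were too few for the fit, did not overlap either.

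In NK cells none of the 5 members tested by edgeR separated the groups. Gzmk, Gzmm, Gzmc, Prf1 and Tnfsf10 did not pass its gene filter there. With the replicate block Prf1 could be fitted, at 0.50 ± 0.44 (adjusted p = 0.771). Gzma, which stood higher in these cells than in the other classes, had a log2 fold change of 0.12 ± 0.36. Gzmb differed by 0.25 ± 0.40, Nkg7 by -0.27 ± 0.30 and Fasl by 0.49 ± 0.59. Ifng was at 100, 277 and 862 CPM in vehicle and 137, 80.3 and 290 CPM in ginkgetin libraries, a log2 fold change of -1.05 ± 0.74 (adjusted p = 0.890, and 0.118 with the replicate block), which was 0.11 without vehicle replicate 3. Of the 5 members tested 0 were called by edgeR, where 0% of 1045 genes were. In that fit 0 members had an unadjusted p under 0.05, where 6.12% of genes had. DESeq2 called 0 members, where it called 0 of 11516 genes. The block also called 0, where 1.42% of genes were called. None of the members tested lay without overlap, where 14.4% of genes did. With 14 to 52 NK cells per library, differences several times these errors could also go uncalled. In the same edgeR fit the chemokine gene Xcl1 had a log2 fold change of -1.43 ± 0.38 and an adjusted p of 0.771.

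Whether the effect of treatment itself differed between NK and CD8 T cells was tested with an interaction term. Of 9 members 0 were called, where 0.269% of 6311 genes were, and 343 genes had an unadjusted p under 0.05. Prf1 had the smallest adjusted p, with a difference of 1.72 ± 0.45 on the log2 scale (adjusted p = 0.0545), which was -0.10 without ginkgetin replicate 3 and -0.32 in replicates 1 and 2 alone. Gzmb, Nkg7 and Fasl had unadjusted p values under 0.05. Without ginkgetin replicate 1, 3 members were called, where 0.632% of 6175 genes were, Gzma at 1.22 ± 0.20, Gzmb at 1.33 ± 0.29 and Prf1 at 1.83 ± 0.38, each a higher log2 fold change in NK cells than in CD8 T cells. With classes taken from clusters, 4 members were called, the same 3 and Nkg7, where 0.539% of 7792 genes were. One of the clusters named NK there, 45 cells of replicate 3, had Cd3d in 93.3% of its cells.

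Over the thinned shares of cells, 5 of the 40 pairs of member and class did not overlap between groups. They were Gzmk in CD8 T cells, Gzmc, Fasl and Ifng in ILC1 and Fasl in NKT cells. The share of ILC1 with a Fasl UMI was 6.39% ± 2.77 in vehicle and 17.9% ± 4.04 in ginkgetin libraries, and that with an Ifng UMI was 6.68% ± 0.732 and 13.6% ± 2.13. Among all genes seen in at least 1% of cells, 13.0% did not overlap in CD8 T cells, 7.90% in NK cells, 10.4% in ILC1 and 10.6% in NKT cells. Each of the 5 pairs had the exact permutation p of 0.1 and an adjusted p of 0.8.

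Signs of other cells and of heat shock moved with the groups in the same libraries. The summed level of 6 macrophage markers inside CD8 T cells was 107 to 177 CPM in vehicle and 30.0 to 57.1 CPM in ginkgetin libraries, and in ILC1 it was 107 to 177 and 45.7 to 119 CPM. The summed level of 5 endothelial markers ran the other way, at 20.9 to 46.2 and 88.7 to 298 CPM in CD8 T cells and 28.3 to 44.2 and 85.4 to 393 CPM in NKT cells. Gzmc was seen in no B cell after thinning. Hspa1a, the inducible heat shock protein 70, stood at 277 to 363 CPM in vehicle ILC1 and 0 to 22.8 CPM in ginkgetin ILC1 and was called there (log2 fold change -4.62, adjusted p = 0.0126), as in NKT cells (-4.04, adjusted p = 0.048). It stood at 303 to 873 against 10.4 to 50.3 CPM in CD8 T cells. The part of these in the members' values was not tested.

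Gamma delta T cells were found in 1 library of each group, 24 cells in vehicle replicate 3 and 34 in ginkgetin replicate 3, so the 2 libraries are compared and not the treatments, with no test. Gzma was at 13.2 CPM (2 UMIs, interval 1.60 to 47.7) in the vehicle library and 743 CPM (145 UMIs, 627 to 874) in the ginkgetin library, a ratio of 56.3 with a counting interval of 15.3 to 469. Gzmb had 1 UMI against 107, a ratio of 83.1 (14.6 to 3313). Nkg7 was at 501 CPM against 927 CPM, a ratio of 1.85 (1.41 to 2.45). Prf1 and Fasl each had 3 UMIs against 17, a ratio of 4.40 (1.27 to 23.4), and Gzmm had 8 against 2, a ratio of 0.194 (0.0201 to 0.973). Cd163l1, a marker of one kind of gamma delta T cell, was at 343 CPM in the vehicle library and 10.2 CPM in the ginkgetin library. This is 1 marker in 24 and 34 cells, and whether the kinds of gamma delta T cells differed was not tested.

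The genes around the members were described by 7 lists with 71 genes, which cover granule partners, secretion machinery, inhibitors, receptors, transcription regulators, chemokines and activation. The lists were chosen with earlier results of these data known, so the shares below are descriptions and no test of the lists. Of 168 class and gene pairs tested, 0 were called by edgeR without the block and 29 (17.3%) had an unadjusted p under 0.05, as had 7.68% of all genes in the same 4 fits. By class these were 14 of 60 in CD8 T cells (7.68% of all genes), 1 of 24 in NK cells (6.12%), 5 of 42 in ILC1 (8.56%) and 9 of 42 in NKT cells (7.31%). With the replicate block 7 of 180 were called, all lower with ginkgetin, where the block called 0.269% of all genes in CD8 T cells, 1.42% in NK cells, 0.661% in ILC1 and 1.75% in NKT cells. They were the chemokines Ccl3 and Ccl4 in CD8 T cells (-2.12, adjusted p = 0.0251, and -1.80, adjusted p = 0.0444), Ccl3 in NKT cells (-1.55, adjusted p = 0.00182) and Xcl1 in NK cells (-1.54, adjusted p = 0.00105) and ILC1 (-1.02, adjusted p = 0.0230). The other 2 were the activation marker Cd69 and the transcription factor Klf2 in NKT cells (-1.38, adjusted p = 0.00429, and -1.44, adjusted p = 0.00985). In CD8 T cells the median log2 fold change without the block was -0.92 over 7 cytokines and chemokines, -0.72 over 11 activation, residency and exhaustion genes, -0.63 over 6 inhibitors, -0.44 over 8 granule partners, -0.35 over 14 transcription regulators, -0.28 over 9 genes of the secretion machinery and 0.21 over 5 receptors, beside 0.04 over all genes. In NKT cells the medians ran from -0.65 over 6 cytokines and chemokines and -0.53 over 6 granule partners to 0.23 over 5 activation genes, beside 0.01. In ILC1 they ran from -0.51 over 7 granule partners to 0.26 over 5 genes of the secretion machinery, 0.30 over 7 cytokines and chemokines and 0.43 over 3 receptors, beside -0.01. In NK cells they ran from -0.38 over 3 granule partners to 0.23 over 9 transcription regulators, beside 0.05.

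The most abundant genes of these lists were read at the following levels in the classes. Srgn, the proteoglycan that packs the granule, had means of 592 CPM in CD8 T cells, 612 in NK cells, 936 in ILC1 and 809 in NKT cells. Ctsw, a cathepsin of killer cells, was at 261, 491, 594 and 397 CPM in the same order. Among the inhibitors, Serpinb9, the inhibitor of granzyme B, was at 271 CPM in NK cells and 28.8 CPM in CD8 T cells, and Serpinb6b was at 394 and 88.1 CPM. Ccl5, a chemokine stored by killer cells, was at 19840 CPM in CD8 T cells and 20467 CPM in NK cells. Xcl1 was at 2712 CPM in ILC1 and 757 CPM in NK cells. These class levels are means over libraries and were not tested.

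CD8 T cells with a Gzmk UMI were described in the 3 vehicle libraries, where 130, 70 and 65 thinned cells had one. Gzmb was seen in 57.7%, 27.1% and 21.5% of them and in 27.0%, 18.5% and 15.3% of the CD8 T cells without Gzmk. Gzma was seen in 19.5% ± 11.9 against 9.13% ± 1.53, and Nkg7 in 94.4% ± 6.22 against 84.3% ± 6.45, each higher in 3 of 3 libraries. Ifng was seen in 12.1% ± 4.89 against 12.6% ± 4.68, Lag3 in 5.46% ± 2.12 against 5.27% ± 6.48 and Cxcr6 in 27.4% ± 5.76 against 27.3% ± 3.03. Some genes outside the lists' leading members were named after their values were seen. Pdcd1, which encodes the checkpoint receptor PD-1, was seen in 16.0% ± 6.24 against 7.37% ± 2.10, Eomes in 22.2% ± 10.5 against 12.7% ± 5.30 and Tox in 18.0% ± 0.761 against 13.0% ± 2.89, each higher in 3 of 3 libraries. Klf2, a transcription factor of circulating T cells, was seen in 13.8% ± 4.28 against 29.4% ± 11.8, lower beside Gzmk in each library. These are descriptions of cells of 3 libraries, with no test. The ginkgetin libraries held 27, 7 and 6 thinned CD8 T cells with a Gzmk UMI. There Gzma was seen in a mean of 30.7% of cells with Gzmk against 10.9% without, Gzmb in 25.1% against 18.5%, Nkg7 in 92.0% against 59.3% and Cxcr6 in 17.7% against 12.7%, each of these 4 higher in 3 of 3 libraries, and Klf2 in 14.8% against 34.9%, lower in each. Pdcd1 (3.70% against 1.96%), Eomes (3.70% against 3.44%), Tox (7.23% against 7.19%), Ifng (13.2% against 5.83%) and Lag3 (6.17% against 1.45%) were higher beside Gzmk in 1 of 3 ginkgetin libraries.

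**Figure D5:**
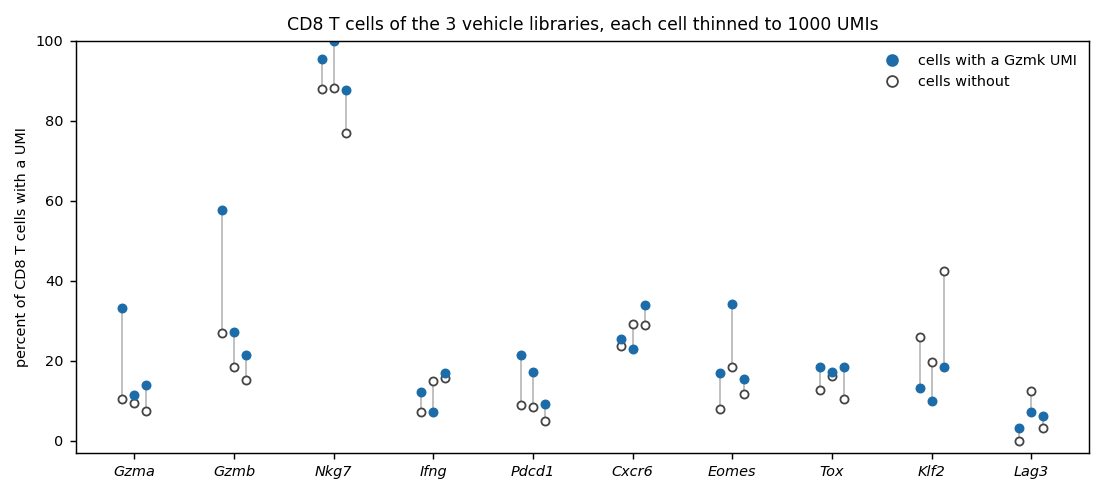
Percent of thinned CD8 T cells of each vehicle library with a UMI of the gene named, among cells with and without a Gzmk UMI. Gzma, Gzmb, Nkg7, Pdcd1, Eomes and Tox are higher and Klf2 is lower among cells with Gzmk in all 3 libraries, and Ifng shows no such order.

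The genes most like a member over 26 sums of class and library (Pearson's r of log2(CPM + 1), 5204 genes) were found as a description. The points share libraries and depth. Gzma was closest to Zfand5 (r = 0.83), Cdk2ap1 (0.80) and Gpr171 (0.80), and Gzmb to Edem2 (0.81), Hivep3 (0.80) and Rchy1 (0.78). Gzmk was closest to Fam169b (0.84), Cd8b1 (0.80), which itself set the CD8 T cell class, and Ms4a6b (0.80). Ifng was closest to Gimap9 (0.78), Dusp2 (0.72) and Sytl3 (0.64).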

How the data were processed

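The deposited values were raw UMI counts per gene and cell, per the labels from 10x Genomics libraries of LNPCs; the aligner and counter are not given in the sources used here, and the submitters' processing notes name GRCm38 and mm10. The labels' extraction text describes another kit than the 10x description. The study's methods state a filter of 250 to 5000 UMIs; cells with 250 to 5000 genes and under 5% mitochondrial UMIs were kept here, and the UMI range, which keeps 16821, was an alternative. Doublets were not called; cells with 3 or more UMIs of another lineage's markers entered no lymphoid class. Gate thresholds were set with the data in view, and the members and lists were chosen with earlier results of these data known. Counts were summed per library and class with 10 or more cells and tested by the quasi-likelihood method of edgeR 4.0.16 (R 4.3.3), after TMM scaling and its filterByExpr step, with Benjamini-Hochberg adjustment over all genes tested, with DESeq2 1.42.0, the replicate block and other settings as alternatives. The fits were tested on simulated data. Other steps used Python 3.11.15, scipy 1.17.1 and, for clusters, leidenalg 0.10.2. Depth was 13128697 to 61796882 UMIs per library. Deviations from the group means correlated between the same replicate numbers in each of 4 classes (r from 0.115 to 0.608). Only replicate 3 clearly paired by number (0.484 to 0.608, against at most -0.187 with another number). For replicates 1 and 2 the r with another number (0.144 to 0.356) was the larger, except in replicate 1 of CD8 T cells (0.284 against 0.222). A pairing of replicates 1 and 2 by number was thus not shown. The replicate block, an alternative to the main fit, assumes it. The text names all members, the genes called and up to 4 genes of the largest mean CPM in each list, and says where a gene was named after its values were seen. The values of 1 listed gene are not reported here.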

Additional observations from a re-analysis of the deposited data

How the results depend on the processing

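Of 56 fold changes tried, 20 changed sign in an alternative, and none of the 20 was called with the changed sign. Tnfsf10 between CD8 T and gamma delta T cells, given below, was not among the 56. Those 20 were not called in the fits that the report leads with, although Gzma and Prf1 in the interaction were called, with the report's sign, in the alternatives given there. Gzmk, Nkg7 and Ifng in CD8 T cells, Gzmc and Fasl in ILC1 and Fasl and Ifng in NKT cells kept their sign in each alternative run, as did the differences called between classes. Gzma between groups turned to -0.21 (replicate block), -0.00650 (UMI filter) and -0.31 (classes from clusters) in CD8 T cells, to -0.82 in ILC1 (replicates 1 and 2 alone) and to -0.053 (DESeq2), -0.025 (no gene filter), -0.33 (replicates 1 and 2 alone) and -0.038 (UMI filter) in NK cells. Gzmb turned to -0.00245 (UMI filter) and -0.20 (clusters) in NK cells and to 0.051 (replicate block) and 0.18 (UMI filter) in NKT cells. Ifng turned to -0.084 in ILC1 (clusters) and 0.13 in NK cells (UMI filter), Nkg7 to 0.011 in NKT cells (replicates 1 and 2 alone), and Tnfsf10 to 0.016 in ILC1 (UMI filter) and to -0.044 (replicates 1 and 2 alone), -0.070 (cells of 2 types left out) and -0.030 (clusters) in NKT cells. Between classes, Gzmb turned to -0.021 (no gene filter) and -0.77 (clusters) for NK cells against ILC1 and to 0.024 (no gene filter) and 0.19 (replicates 1 and 2 alone) for CD8 T against NKT cells. The interaction turned to -0.33 (replicates 1 and 2 alone) and -0.00575 (UMI filter) for Gzma and to -0.32 (replicates 1 and 2 alone) for Prf1. Over the fits without 1 library, Gzma ran from -1.59 to 1.15 in CD8 T cells, -0.45 to 1.95 in ILC1, -0.14 to 0.26 in NK cells and -0.19 to 0.63 in NKT cells. Gzmb ran from -1.79 to 0.47 in CD8 T cells, -0.083 to 1.38 in ILC1, -0.18 to 0.46 in NK cells and -0.66 to 0.81 in NKT cells. In CD8 T cells Gzmm ran from -1.12 to 0.41 and Prf1 from -3.18 to 0.69, in NK cells Fasl from -0.040 to 0.98 and Ifng from -1.83 to 0.11, in ILC1 Ifng from -0.18 to 0.83 and Tnfsf10 from -0.66 to 0.0077, and in NKT cells Nkg7 from -0.33 to 0.18 and Tnfsf10 from -0.11 to 0.17. Between classes Gzmb ran from -0.11 to 0.44 (NK cells against ILC1) and -0.38 to 0.21 (CD8 T against NKT cells), and in the interaction Gzma ran from -0.66 to 1.22 and Prf1 from -0.0957 to 1.83. With the replicate block, edgeR called 21 genes in CD8 T cells in place of 0, 19 in NK cells in place of 0, 28 in ILC1 in place of 1 and 76 in NKT cells in place of 1, with 1 member each in CD8 T cells, ILC1 and NKT cells in place of 0. The barcode set as a block (replicates 1 and 2 against replicate 3) called 13, 1, 16 and 38 genes, with 1 member in CD8 T cells and 1 in ILC1. DESeq2 called 21 genes in CD8 T cells, 4 in ILC1 and 2 in NKT cells, with 1 member in each of the first 2. Without a gene filter, 7 genes were called in NK cells, 33 in ILC1 (with 1 member), 19 in NKT cells and 4 members between CD8 T and gamma delta T cells in place of 2. Replicates 1 and 2 alone called 0 genes in ILC1, 24 in NKT cells, 3 members between NK cells and ILC1 in place of 6, 2 between NK and CD8 T cells in place of 4, 11 of 40 pairs (27.5%, beside 34.4% over all genes) without overlap in the shares of cells with a member's UMI in place of 5, and 1 class share without overlap in place of 0. The UMI filter called 1 gene in NK cells and 0 in ILC1, and left 2 class shares without overlap. Without a cell filter NKT cells had 0 called genes and 1 class share did not overlap. With RLE size factors 0 genes were called in NKT cells and 1 member in the interaction of NK and CD8 T cells in place of 0. Classes from clusters called 0 genes in ILC1 and NKT cells and 4 members in the interaction. Genes of both barcode sets only, an alternative chosen after seeing the data, called 1 gene in NK cells, 4 in NKT cells and 1 member in the interaction. Without thinning, 1 pair of member and class did not overlap. Leaving out each library in turn gave 0 to 1 genes in CD8 T cells, NK cells and ILC1, 0 in NKT cells, 0 to 6 members between CD8 T and gamma delta T cells (0 without vehicle replicate 3, 6 without ginkgetin replicate 3), 0 to 3 members in the interaction, 0 to 2 class shares and 6 to 11 of 40 pairs (up to 27.5%, beside 17.3% to 20.8% over all genes) without overlap. The causes were not tested. Gzmk in CD8 T cells ran from -2.86 to -2.03 over 17 alternatives and was called in 3 (adjusted p from 0.000219 to 0.999). Gzmc in ILC1 ran from -4.16 to -2.89 over 16 and was called in 4, and Fasl in NKT cells from 0.73 to 1.35 over 17, called in 1. Of 50 member differences between classes, 19 were called, 8 of these lost the call in an alternative and 12 others gained one, Tnfsf10 between CD8 T and gamma delta T cells with the other sign (7.17 with the UMI filter). Gzma between NK and CD8 T cells (3.67 to 4.40) and Gzmk between CD8 T and NKT cells (3.68 to 5.22) were called in all 14. No group test could be run in gamma delta T cells, which replicate 3 alone held. Classes of 14 to 52 NK cells and 15 to 85 ILC1 per library limit what could be detected.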

Other observations

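Some of the 7 listed receptors of the effectors were also read in other cells of the preparation, and these levels were not tested. Fas, the receptor of Fas ligand, had a mean of 90.7 ± 12.5 CPM (SD over 6 libraries) in endothelial cells and between 5.46 and 26.3 CPM in the lymphoid classes. Ifngr1, the ligand-binding chain of the interferon gamma receptor, was higher in a lymphoid class, with means of 570 CPM in NK cells and 353 CPM in macrophages. Ifngr2, its signalling chain, had means of 139 CPM in macrophages and 76.9 CPM in endothelial cells against 0.542 to 13.2 CPM in the lymphoid classes. Fas and Ifngr2 were named after their values were seen. Tnfsf10 was seen in 6.18% of endothelial cells of the vehicle libraries and 9.62% of those of the ginkgetin libraries after thinning to 1000 UMIs.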
